A study of Rattus norvegicus with 8 samples.

Results

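Expression of 10 genes that mark microglia was examined in the lumbar spinal cord of stressed and control rats. They are Aif1, Itgam, Cx3cr1, Csf1r, P2ry12, Tmem119, Tyrobp, Trem2, Cd68 and Ptprc. The members were chosen by name, as every probe outside the array's own controls whose gene name is one of these 10 symbols, among 26514 gene names on the array. They are read by 15 probes of 60 bases, and 5 of the genes have 2 probes each. Male Wistar rats of 12 weeks were used in both groups. The 4 stressed rats spent 1 h a day on a small platform surrounded by water on 10 days, a psychological stress in which the water is avoided by staying on the platform, and the 4 control rats were handled. The L6S1 segments were taken 24 h after the last session, with the meninges removed by dissection, and RNA of each rat was hybridised to 1 Agilent rat gene expression array in 1 colour. The comparison addresses whether repeated stress is accompanied by a change in spinal glial transcripts.

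Microglia are the resident macrophages of the central nervous system. They scan the tissue with motile processes, clear debris and synapses, and depend on signalling through the receptor encoded by Csf1r for survival. In the spinal dorsal horn they are known to respond to nerve injury, when their number and their staining for the products of Aif1 and Itgam rise. The RNA here came from the whole cord segment, so that fewer cells and less RNA per cell cannot be told apart. Most of the members are also carried by macrophages of the vessels and meninges, and Ptprc by all white blood cells.

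A level is the log2 processed signal of a probe minus the 75th percentile of its array, so that 0 is the brightness of the probe at that percentile. Brightness differs between probes for reasons of sequence, so that levels are compared between rats and not between genes. A difference is stressed minus control on the log2 scale. A gene was called when the adjusted p of its brightest probe was below 0.1, from limma with Benjamini-Hochberg adjustment over all 23677 tested probes. All 10 members and all 15 of their probes were bright enough to be tested, and 14 of the probes were well above background on every array.

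None of the 10 microglia genes was called in the stressed rats. In the same fit, 3.74% of all tested probes were called. The count was 0 at the stricter threshold of 0.05 as well, and 0 of the 15 probes had an unadjusted p below 0.05 in limma, against 20.3% of all tested probes. The smallest adjusted p was 0.309, at P2ry12, and the largest was 0.979, at a probe of Csf1r. Of the 10 brightest probes, 7 were higher and 3 were lower in the stressed rats, with differences from -0.16 at Cd68 to 0.28 at Csf1r. The median difference was 0.040 for the members and 0.061 for all tested probes. The groups overlapped at all 15 member probes, whereas they did not overlap at 12.1% of all tested probes.

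Facts of the arrays bear on these values. All 8 arrays were on 1 slide and read in 1 scan, row 1 holding the stressed and row 2 the control rats, so that row and stress cannot be told apart. Control replicate 2 stood apart from the other controls and lay with the stressed rats, and whether its label or its RNA differs was not tested. On the first principal component it lay at -46.1, the stressed rats lay between -34.5 and -8.23, and the other controls lay between 39.4 and 56.3. The median 5′ minus 3′ value, for which 1885 transcripts gave a pair of probes 300 or more bases apart and which was centred on the 8 rats, was 0.22 in this rat, 0.092 to 0.17 in the stressed rats and -0.30 to -0.18 in the other controls. Values without that rat are given below for the members where they change a call, a direction or a size by much. For the further lists only counts of calls without that rat are given. Apart from control 2 the 5′ minus 3′ value separated the groups. A fit with this value as a covariate can therefore tell it from stress mainly through control 2, and its differences rest largely on that rat.

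**Figure D1:**
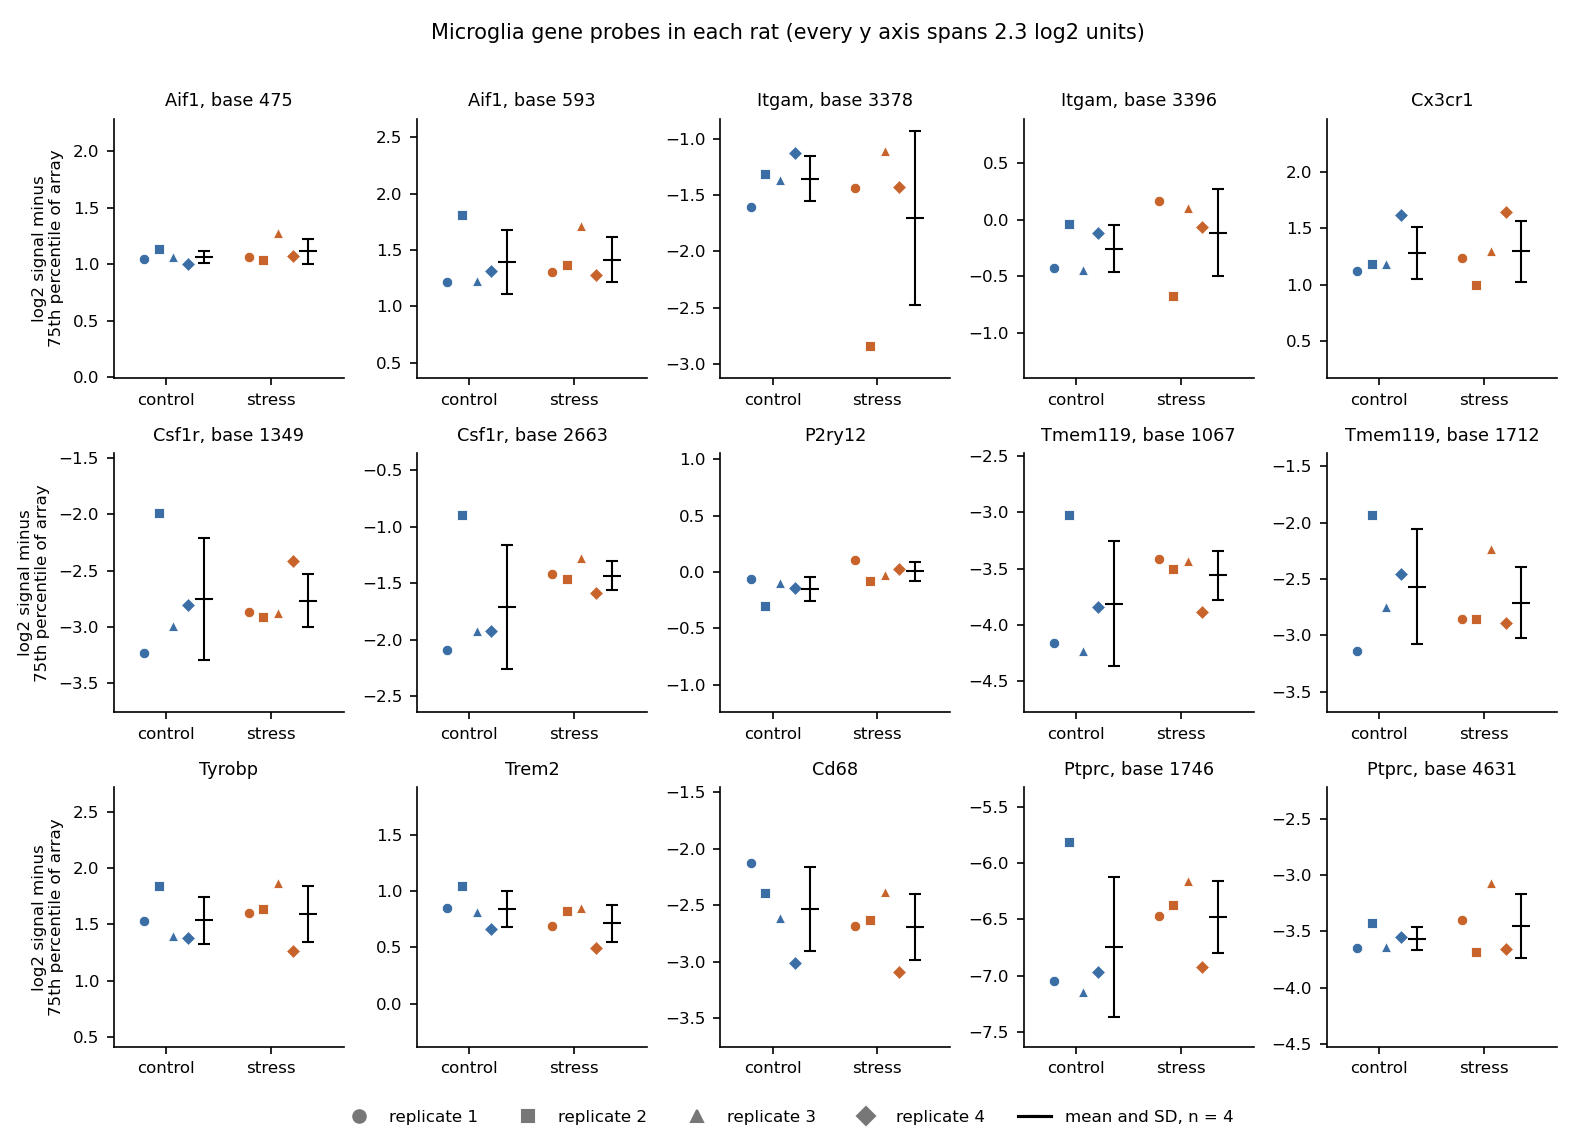
Level of each of the 15 member probes in every rat, as log2 signal minus the 75th percentile of the array, with control rats in blue and stressed rats in orange. Marker shapes give the replicate number, the black bars give the mean and SD of 4 rats, and every y axis spans the same number of log2 units. The groups overlap in every panel, and control replicate 2 is the highest control at both Csf1r and both Tmem119 probes.

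The letters of 2 Itgam probes and of 1 probe each of Aif1 and Ptprc are shown. In each of these genes the 2 probes differed in level or in spread between rats. The probes of Csf1r and of Tmem119 also differed, and their letters are not shown. Positions of probes are those of the array files on the rat rn4 assembly, and probes are named by the base of the transcript at which they start. The Itgam probes start 18 bases apart and align over 42 bases, of which 39 are identical. Capitals mark the unbroken run of 34 identical bases, and 3 of the 8 aligned bases after that run differ.
Itgam, base 3378: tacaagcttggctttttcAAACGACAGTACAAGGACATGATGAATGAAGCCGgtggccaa
Itgam, base 3396: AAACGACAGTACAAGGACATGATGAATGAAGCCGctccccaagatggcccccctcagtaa
Aif1, base 475: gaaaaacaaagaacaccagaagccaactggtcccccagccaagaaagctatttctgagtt
Ptprc, base 1746: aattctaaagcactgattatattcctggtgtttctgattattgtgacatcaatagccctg

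Aif1, Itgam and Ptprc encode the proteins most often stained to show microglia and other leukocytes. Aif1 encodes IBA1, a calcium-binding protein of the actin skeleton. Its brightest probe, at chr20:3716264-3716323 on the plus strand, read 1.22, 1.82, 1.23 and 1.31 in control replicates 1 to 4. In stressed replicates 1 to 4 it read 1.30, 1.37, 1.71 and 1.28. Control 2 and stressed 3 were the high rats, and all 4 stressed values lay inside the range of the controls. The means were 1.39 ± 0.29 in control and 1.42 ± 0.20 in stressed rats (SD, n = 4), a difference of 0.024 (SE 0.16, limma adjusted p = 0.943), and of 0.17 without control 2 (limma adjusted p = 0.306). The Aif1 probe shown above, at chr20:3716146-3716205, varied less between rats. It read 1.05, 1.13, 1.06 and 1.0 in control and 1.06, 1.04, 1.28 and 1.08 in stressed rats. Stressed 3 was again the highest stressed rat, and the difference of 0.053 (SE 0.078, limma adjusted p = 0.71) had a 95% interval from -0.13 to 0.23.

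Itgam encodes CD11b, the alpha chain of complement receptor 3. Its brightest probe, the one at base 3396 shown above (chr1:187385524-187385583, plus strand), read -0.42, -0.038, -0.45 and -0.12 in control rats. In stressed rats it read 0.17, -0.68, 0.11 and -0.062. Here 2 stressed rats were above all controls and stressed 2 was below all of them. The difference was 0.14 (SE 0.20, limma adjusted p = 0.696). Without stressed 2 it was 0.33 (limma adjusted p = 0.334), and without control 2 it was 0.22. The probe at base 3378, which spans chr1:187385032-187385565, read -1.61, -1.31, -1.37 and -1.13 in control rats and -1.44, -2.84, -1.11 and -1.43 in stressed rats. Stressed 2 stood far below the other 7 rats at this probe, although 39 of the 42 aligned bases are those of the other probe. The difference was -0.35 (SE 0.35, limma adjusted p = 0.586), with a 95% interval from -1.16 to 0.47, the widest of the 15 probes. The 2 spots of this probe on an array differed little, with a median SD of 0.018. Without stressed 2 the difference was 0.031.

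Ptprc encodes CD45, a tyrosine phosphatase of the surface of leukocytes that resting microglia carry at a low level. The brightest probe (chr13:51246523-51246582, minus strand), printed as 10 spots on each array, read -3.65, -3.42, -3.64 and -3.55 in control rats. In stressed rats it read -3.40, -3.68, -3.07 and -3.65, so that 2 stressed rats were above and 2 were below all controls. The difference was 0.11 (SE 0.14, limma adjusted p = 0.66). The Ptprc probe shown above (chr13:51274302-51274361) was near the limit of detection, as 1 of the 4 stressed arrays did not read it well above background, with a processed signal of 16.1 to 32.6. Control 2 was its highest rat at -5.82, the other controls lay between -7.14 and -6.97, and the stressed rats lay between -6.92 and -6.16. Over all 8 rats the difference was 0.26 (SE 0.31, limma adjusted p = 0.641).

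Cx3cr1, Csf1r, P2ry12 and Tmem119 encode surface proteins of resting microglia, the first 3 of them receptors. Cx3cr1 encodes the receptor for fractalkine, a chemokine carried by neurons. Its probe (chr8:125033728-125033787, minus strand) read 1.12, 1.18, 1.18 and 1.62 in control rats and 1.24, 1.0, 1.29 and 1.65 in stressed rats. In each group replicate 4 was the highest. The means of 1.28 ± 0.23 and 1.29 ± 0.27 (SD, n = 4) differed by 0.017 (SE 0.16, limma adjusted p = 0.961), with a 95% interval from -0.36 to 0.40. Without control 2 the difference was -0.015.

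Csf1r encodes the receptor tyrosine kinase for CSF1 and IL-34. Its brightest probe (chr18:57105231-57105932, plus strand) read -2.10, -0.90, -1.93 and -1.93 in control rats and -1.42, -1.46, -1.27 and -1.58 in stressed rats. All 4 stressed rats lay above 3 of the controls and below control 2. Over all 8 rats the difference was 0.28 (SE 0.25, limma adjusted p = 0.546; exact two-sided permutation p = 0.429). Without control 2 it was 0.55 (SE 0.089, limma adjusted p = 0.00484), in a fit that called 42.4% of all tested probes. The probe at base 1349 (chr18:57093036-57093095) read -3.23, -1.99, -3.0 and -2.81 in control and -2.87, -2.92, -2.88 and -2.42 in stressed rats. Control 2 was again the highest rat. The difference there was -0.015 (SE 0.26, limma adjusted p = 0.979), and 0.24 without control 2 (limma adjusted p = 0.274). With the 5′ minus 3′ value of each array as a covariate, the difference at the brightest probe turned to -0.35 (limma adjusted p = 0.105).

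P2ry12 encodes a receptor for ADP that guides the processes of microglia. Its probe (chr2:148611053-148611112, minus strand) read -0.062, -0.30, -0.10 and -0.14 in control rats and 0.11, -0.085, -0.031 and 0.029 in stressed rats. Here 3 of the 4 stressed rats were above all controls, and the remaining one lay below control 1 and above the other 3. The means were -0.15 ± 0.10 in control and 0.0048 ± 0.082 in stressed rats (SD, n = 4). The difference of 0.16 (SE 0.080), a fold of 1.11, had the smallest p of the 15 probes, and it did not pass the test (limma adjusted p = 0.309; exact two-sided permutation p = 0.0571, where 0.0286 is the smallest that 4 against 4 rats allow). Its 95% interval ran from -0.030 to 0.34. Without control 2, the lowest rat, the difference was 0.11 (limma adjusted p = 0.246). With the 5′ minus 3′ covariate it was 0.27 (limma adjusted p = 0.103).

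Tmem119 encodes a membrane protein that distinguishes microglia from other macrophages. The brightest probe (chr12:43869614-43869673, plus strand), printed as 10 spots on each array, read -3.14, -1.93, -2.75 and -2.46 in control rats and -2.86, -2.86, -2.24 and -2.89 in stressed rats. Control 2 was the highest of the 8, and all 4 stressed rats lay inside the control range. The difference was -0.14 (SE 0.27, limma adjusted p = 0.774). Without control 2 it was 0.070 (limma adjusted p = 0.831), and with the 5′ minus 3′ covariate it was -0.69 (limma adjusted p = 0.137). The probe at base 1067 (chr12:43868969-43869028) read -4.16, -3.02, -4.23 and -3.84 in control and -3.41, -3.51, -3.44 and -3.88 in stressed rats. Its difference had the other sign, 0.25 (SE 0.27, limma adjusted p = 0.6). The 5′ minus the 3′ level of Tmem119 in the same rat was -1.25 ± 0.22 in control and -0.85 ± 0.30 in stressed rats (SD, n = 4; exact two-sided permutation p = 0.114). The same value went the other way for Csf1r, from -1.04 ± 0.11 in control to -1.34 ± 0.34 in stressed rats (exact two-sided permutation p = 0.143), and for Ptprc it was -3.18 ± 0.52 and -3.03 ± 0.24 (exact two-sided permutation p = 0.571).

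Tyrobp and Trem2 belong to 1 signalling unit and Cd68 to the lysosome. Tyrobp encodes DAP12, the adapter that passes on the signals of several myeloid receptors. Its probe (chr1:85369110-85369169, plus strand) read 1.53, 1.84, 1.40 and 1.37 in control rats and 1.60, 1.64, 1.87 and 1.26 in stressed rats. The highest stressed rat was above and the lowest was below all controls. The difference was 0.056 (SE 0.15, limma adjusted p = 0.848), and 0.16 without control 2 (limma adjusted p = 0.421). Trem2 encodes a receptor for lipids that signals through DAP12. Its probe (chr9:8059065-8059124, minus strand) read 0.85, 1.04, 0.82 and 0.66 in control rats and 0.69, 0.83, 0.85 and 0.49 in stressed rats. The groups overlapped over most of their range, and the difference was -0.13 (SE 0.11, limma adjusted p = 0.537). Without control 2 it was -0.060 (limma adjusted p = 0.687).

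Cd68 encodes a lysosomal glycoprotein often used to mark phagocytosing cells. Its probe (chr10:56481726-56481785, minus strand) read -2.12, -2.39, -2.61 and -3.01 in control rats. In stressed rats it read -2.68, -2.63, -2.38 and -3.09. Replicate 4 was the lowest rat of both groups, and the difference was -0.16 (SE 0.22, limma adjusted p = 0.683), with a 95% interval from -0.66 to 0.34.

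The precision of 4 against 4 rats sets what these values can show. The 95% interval of the difference lay within 1 log2 unit of 0 in either direction at 14 of the 15 probes, the exception being Itgam at base 3378. It lay within 0.5 log2 units at 7 of the 15. The pooled SD of a group had a median of 0.25 over the 10 members and 0.20 over all tested probes. It was smallest at Aif1 base 475 (0.088) and P2ry12 (0.094), and largest at Itgam base 3378 (0.56). These intervals are not a limit of detection, as a call also needed an adjusted p below 0.1. Of all tested probes, 20.3% had an unadjusted p below 0.05 in limma and 3.74% were called. Small differences could be missed with these arrays, and so could ones large enough to move an interval off 0.

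**Figure D2:**
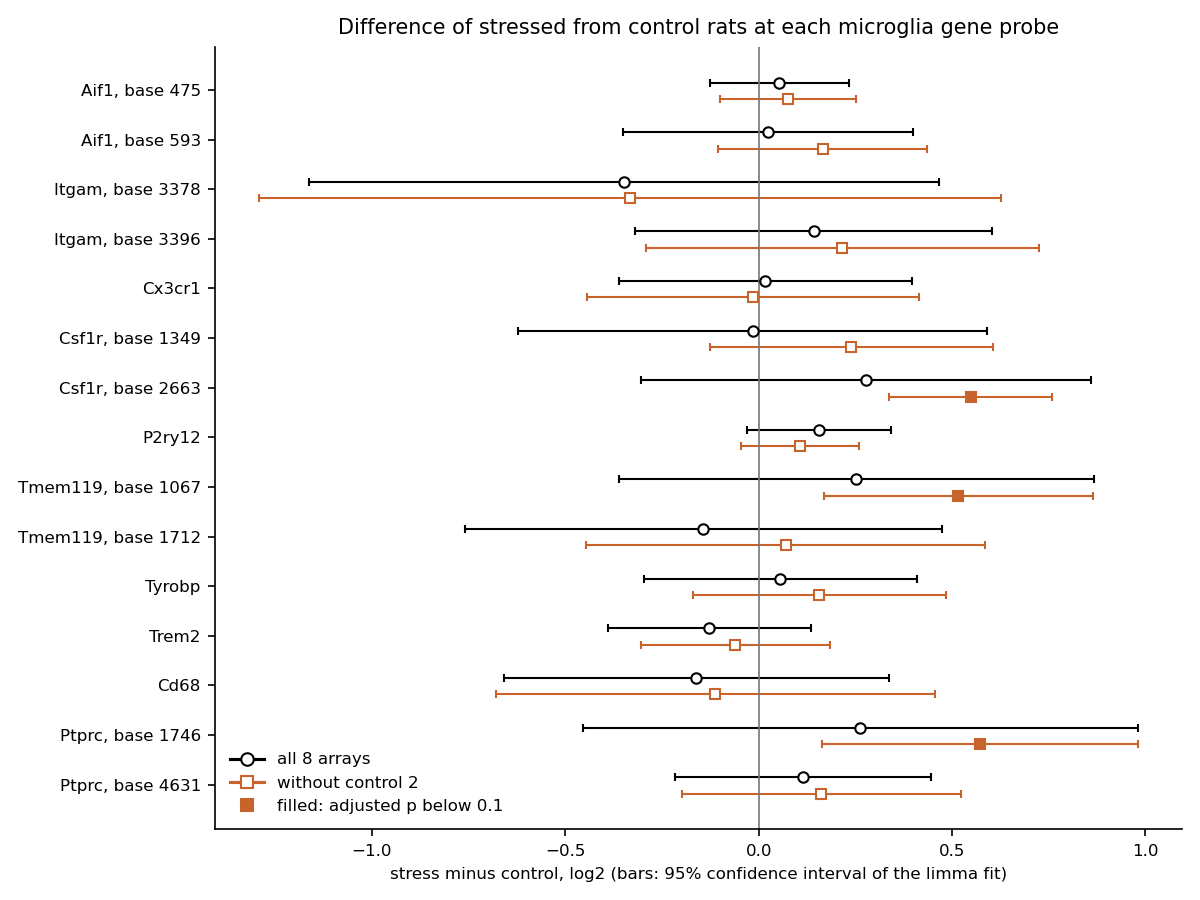
Stressed minus control difference on the log2 scale at each of the 15 member probes, with its 95% confidence interval, over all 8 arrays (black circles) and without control replicate 2 (orange squares). Filled symbols have an adjusted p below 0.1: there is none over all 8 arrays, and without that rat they are Csf1r base 2663, Tmem119 base 1067 and Ptprc base 1746.

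Leaving out control 2 changed the calls of 3 member probes, all of them upwards. Besides Csf1r base 2663, these were Tmem119 base 1067 with a difference of 0.52 (SE 0.15, limma adjusted p = 0.0352) and Ptprc base 1746 with a difference of 0.57 (SE 0.17, limma adjusted p = 0.043). By the brightest probe, 1 of the 10 members was called in that fit, where 42.4% of all tested probes were called. The median difference was then 0.13 for the members and 0.093 for all tested probes. With the 5′ minus 3′ value as a covariate, the differences at the same 3 probes turned negative, to -0.35, -0.40 and -0.48, and that of Tmem119 base 1067 was called in the downward direction (limma adjusted p = 0.0896), in a fit that called 10.1% of all tested probes. Among the controls only control 2 had a 5′ minus 3′ value as high as those of the stressed rats. This fit can therefore tell that value from stress mainly through control 2, and its differences rest largely on that rat. The part of the value in these differences was not tested further.

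The rats within a group differed in the same direction at several members. Among the stressed rats, replicate 3 was the highest at 7 of the 10 members, and it was the highest at 29.1% of all tested probes. Replicate 4 was the lowest at 6 of the 10, against 35.7% of all tested probes. Among the controls, replicate 2 was the highest at 7 of the 10, but that rat was the highest control at 55.3% of all tested probes. The members it did not lead were Cx3cr1, P2ry12 and Cd68. The members share their rat and their array, so that these counts describe single rats and not 10 separate results.

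**Figure D3:**
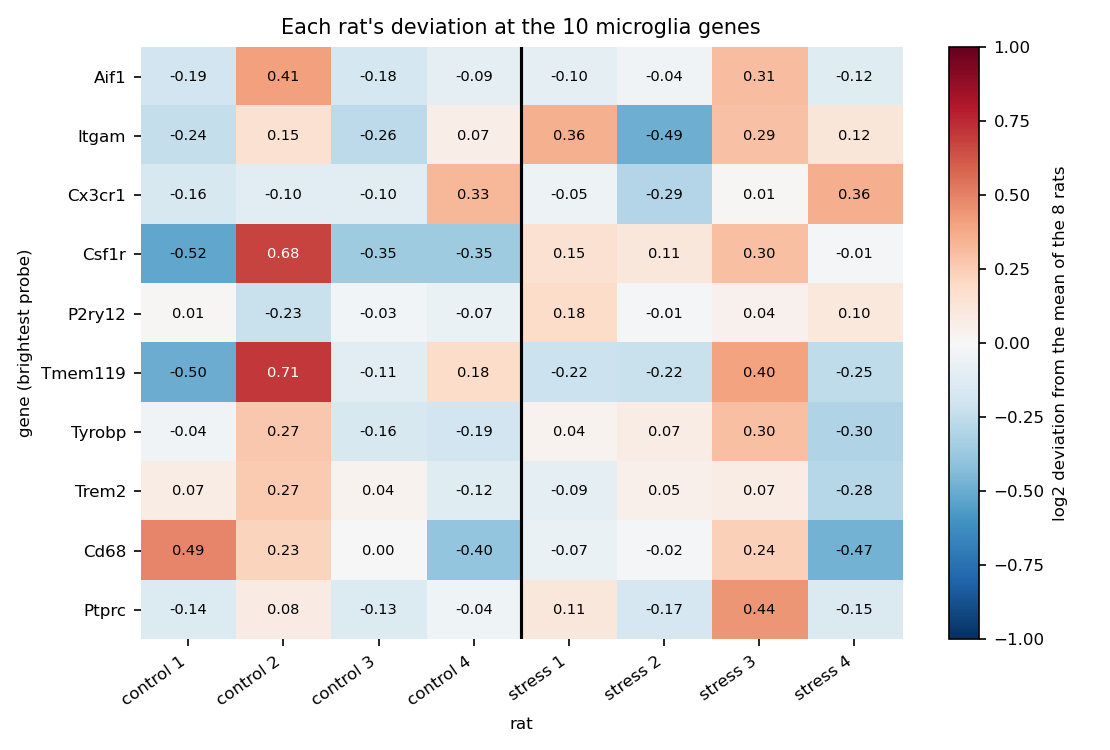
Deviation of each rat from the mean of the 8 rats, on the log2 scale, for the brightest probe of each of the 10 members, with control rats to the left and stressed rats to the right of the black line. Stressed replicate 3 is above the mean at all 10 genes, and control replicate 2 is above it at 8 of the 10, by up to 0.71 at Tmem119.

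Genes of other cells in or near the cord moved with some of these rats. In stressed replicate 3 the median deviation from the mean of the 8 rats was 0.30 for the microglia members, 0.40 for 9 tested markers of perivascular macrophages and monocytes, 0.59 for 5 of red blood cells, 0.45 for 9 of Schwann cells and 0.42 for 10 of meninges and fibroblasts. In the other 3 stressed rats these 4 lists lay between -0.52 and -0.017. Cells of the cord itself gave 0.31 for oligodendrocytes, 0.18 for astrocytes, 0.17 for endothelial cells and -0.081 for neurons in stressed replicate 3. In control 1 the Schwann cell list was at 1.20 and the meninges list at 0.81, while the microglia members were at -0.15. In control 2 the members were at 0.25, the red blood cell list at 0.36 and the Schwann cell list at 0.20. Its perivascular list was at -0.029 and its meninges list at -0.062. Whether other cells in the dissected tissue take part in the values of the members was not tested.

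**Figure D4:**
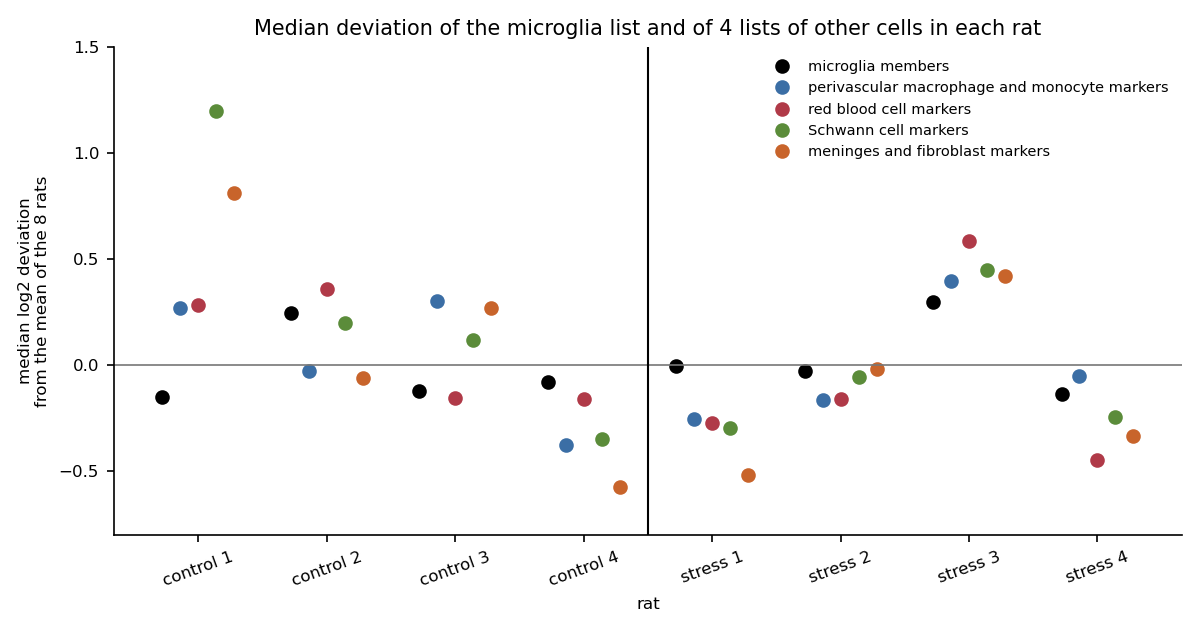
Median log2 deviation from the mean of the 8 rats, over the tested genes of the microglia list (black) and of 4 lists of other cell types, in each rat. In stressed replicate 3 all 5 lists are above 0, and in control replicate 1 the 4 other lists are above 0 while the microglia list is at -0.15.

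Ligands and binding partners of the members came from a list of 12 genes, of which 11 were tested and 1 was called, in the downward direction. Tgfb1, which encodes the growth factor that maintains the resting state of microglia, read -3.57, -3.89, -3.51 and -3.63 in control rats and -4.28, -4.07, -3.99 and -4.23 in stressed rats. The groups did not overlap, and the difference was -0.49 (SE 0.11, limma adjusted p = 0.0859). The call was lost when any rat other than control 2 was left out (limma adjusted p from 0.166 to 0.253), and with the covariate (limma adjusted p = 0.156). The fits without 1 of those rats called 0% to 0.304% of all tested probes, against 3.74% over all 8 rats. The Tgfb1 call was also lost with normexp background correction, at -0.26 (limma adjusted p = 0.475), and with quantile normalization (limma adjusted p = 0.112). The remaining 10 genes of this list were not called. Of the ligands of Csf1r, Il34 differed by -0.22 (limma adjusted p = 0.191) and Csf1 by 0.056 (limma adjusted p = 0.848). Cx3cl1, which encodes fractalkine, differed by -0.081 (limma adjusted p = 0.557). The beta chain that pairs with CD11b is encoded by Itgb2, with a difference of -0.11, and its ligands C3 and Icam1 had differences of -0.30 and -0.26. Apoe, a ligand of the Trem2 receptor, differed by -0.056. Of the proteins by which neurons and other cells restrain microglia, Cd200 differed by -0.18 and Cd47 by 0.16, and Sirpa, the receptor for Cd47, by -0.17. Each of these 3 genes has a second tested probe of the opposite sign, at 0.47, -0.28 and 0.41. The median of the list was -0.17, against 0.061 for all tested probes. Without control 2, 1 gene of the list was called upwards and 4 downwards, in a fit that called 42.4% of all tested probes.

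Among 22 tested genes of activated microglia, 1 was called and it was higher in stressed rats, against 3.74% of all tested probes called. At an unadjusted p below 0.05, 3 were higher and 2 were lower, against 20.3% of all tested probes. The list had a median of 0.075 and a range of -1.21 to 1.84. Without control 2, 6 of the 22 were called upwards and 2 downwards, in a fit that called 42.4% of all tested probes. Cd9, a tetraspanin that oligodendrocytes also carry, read -2.05, -0.65, -2.14 and -1.73 in control rats and 0.13, 0.31, 0.51 and -0.18 in stressed rats. The groups did not overlap, and the difference was 1.84 (SE 0.33, limma adjusted p = 0.059). This call too was lost when any rat other than control 2 was left out (limma adjusted p from 0.119 to 0.2), and with the covariate the difference was 1.03 (limma adjusted p = 0.0405). In the oligodendrocyte list Mog, a myelin glycoprotein, was the 1 gene of 10 called, with a difference of 0.90 (SE 0.18, limma adjusted p = 0.0721). Its call was lost as well when any rat other than control 2 was left out (limma adjusted p from 0.133 to 0.22), and with the covariate the difference was 0.53 (limma adjusted p = 0.102). With normexp background correction the Mog difference was 0.86 (limma adjusted p = 0.116). The fits without 1 rat other than control 2 called at most 0.304% of all tested probes.

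None of 27 tested further genes of resting microglia was called by limma, against 3.74% of all tested probes. Of the 27, 3 had an unadjusted p below 0.05, against 20.3% of all tested probes, and the median difference of the list was 0.035. The smallest p values in this list were those of Siglec5, a sialic acid receptor, with a difference of 0.99 (limma adjusted p = 0.128), and Fcgr3a, an Fc receptor, with 1.05 (limma adjusted p = 0.132). None of 7 myeloid transcription factors was called or had an unadjusted p below 0.05, with a median of 0.13. Irf8, a factor of microglia and macrophage development, differed by 0.40 (limma adjusted p = 0.341). None of 11 genes of Tyrobp signalling was called and 1 had an unadjusted p below 0.05, with a median of 0.13 and with differences of 0.68 at Lat2 (limma adjusted p = 0.179) and 0.19 at Grb2 (limma adjusted p = 0.266). A second tested probe of Grb2 differed by 0.61. None of 11 phagosome and lysosome genes was called and 1 had an unadjusted p below 0.05, with a median of 0.057. Ctsl and Gusb differed by 0.26 and -0.14, and a second tested probe of Gusb by 0.30. Without control 2, 6 of the 27 resting genes were called upwards and 2 downwards. Upward calls were 2 among the transcription factors, 3 in Tyrobp signalling and 1 among phagosome and lysosome genes, with 0 downward. That fit called 42.4% of all tested probes.

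Markers of the other cells that carry some of the members, and of blood and meninges, were not called by limma either, against 3.74% of all tested probes. In these 4 lists 0 genes had an unadjusted p below 0.05, against 20.3% of all tested probes. Without control 2, 2 lymphocyte markers were called upwards and 0 genes in the rest of these lists, in a fit that called 42.4% of all tested probes. Of 9 tested markers of perivascular macrophages and monocytes 0 were called, with a median of -0.16 and with F13a1 at 0.47 (limma adjusted p = 0.286) and Cd163 at -0.79 (limma adjusted p = 0.297). The median deviation of this list in a rat ran from -0.38 to 0.30 in control and from -0.25 to 0.40 in stressed rats. Of 7 tested lymphocyte markers 0 were called, with a median of 0.082, a difference of 0.27 at Cd3d and of -0.43 at Cd3g. Of 5 red blood cell markers 0 were called, with a median of -0.11, and Alas2 and Hbb-b1 differed by -0.34 and -0.23. Of 10 meninges and fibroblast markers 0 were called, with a median of -0.28, and Col3a1 and Slc6a13 differed by -0.95 and -0.38.

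Markers of the remaining cells of the cord were 10 each for astrocytes, neurons and endothelial cells and 9 for Schwann cells. Over all tested probes 3.74% were called and 20.3% had an unadjusted p below 0.05. Without control 2, upward calls were 5 for astrocytes, 5 for oligodendrocytes, 2 for neurons, 3 for endothelial cells and 1 for Schwann cells. Downward calls were 1 for oligodendrocytes, 1 for neurons and 2 for endothelial cells, in a fit that called 42.4% of all tested probes. Of the astrocyte markers 0 were called and 1 had an unadjusted p below 0.05, with a median of 0.23 and with Gja1 at 0.30 (limma adjusted p = 0.12) and Aqp4 at 0.26. The 3 tested probes of Aqp4 ran from 0.26 to 0.75. Of the neuron markers 0 were called and 2 had an unadjusted p below 0.05, with a median of 0.045 and with Nefl at 0.57 (limma adjusted p = 0.12) and Slc17a6 at -0.26. The oligodendrocyte list had a median of 0.20 and the endothelial list of 0.099. Pecam1 was the 1 endothelial gene called, at 0.40 (limma adjusted p = 0.0927). Its call was lost when any rat other than control 2 was left out (limma adjusted p from 0.132 to 0.266). Those fits called at most 0.304% of all tested probes. The Pecam1 call was also lost with normexp background correction (limma adjusted p = 0.176) and with the covariate (limma adjusted p = 0.103). Of the Schwann cell markers, with a median of -0.18, Cdh19 was called, with a difference of 1.78 (limma adjusted p = 0.037). It was well above background on 4 stressed and 0 control arrays. It therefore passed the filter only through the group where it was high, and its size depended on the background correction. With normexp background correction its log2 difference was 0.33 (limma adjusted p = 0.679). Its call too was lost when any rat other than control 2 was left out (limma adjusted p from 0.1 to 0.149).

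**Figure D5:**
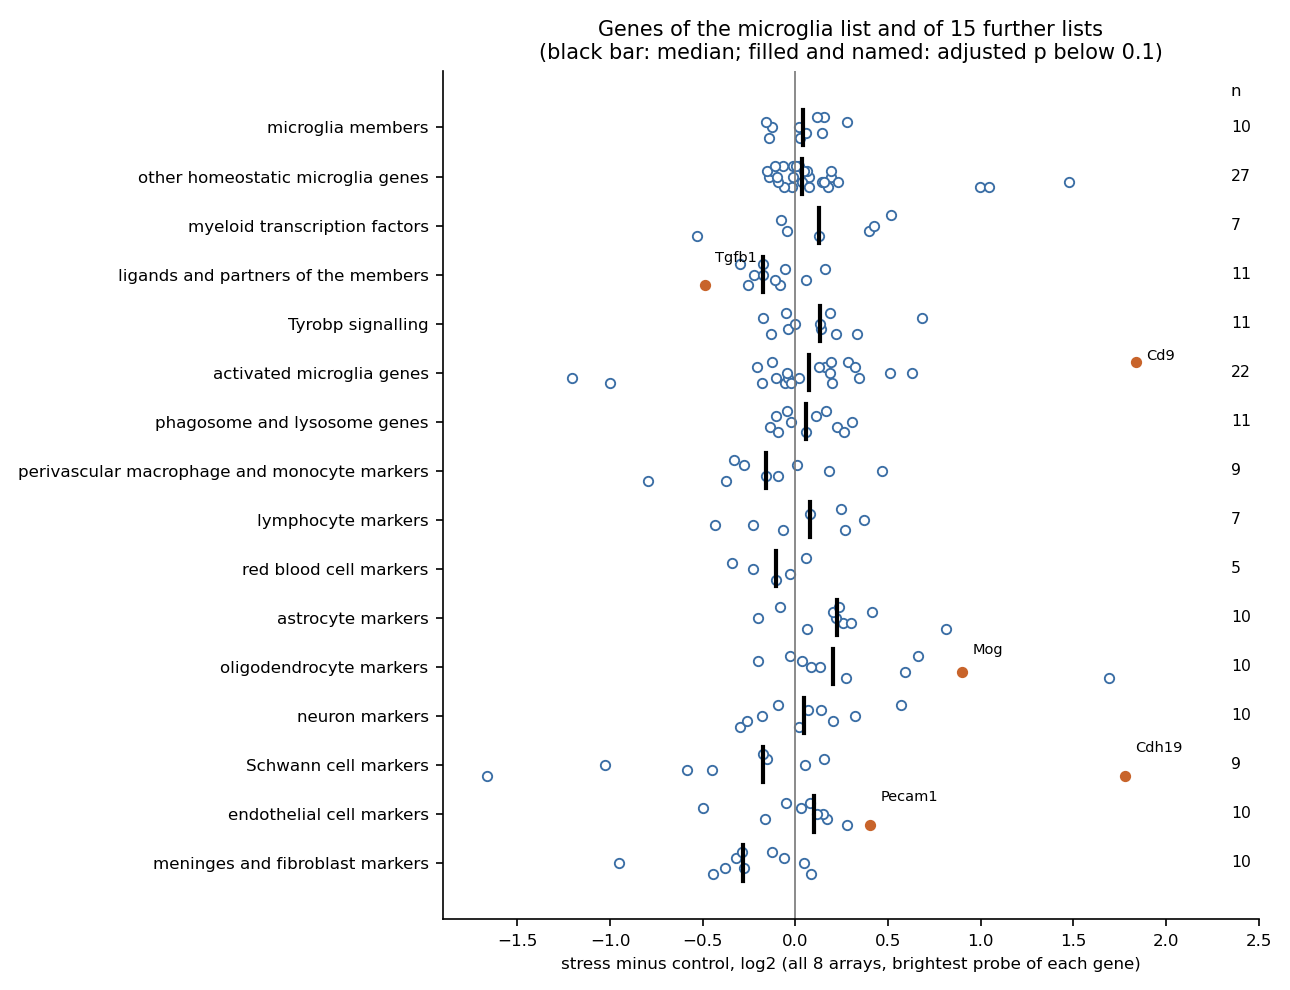
Stressed minus control difference on the log2 scale for the brightest probe of each tested gene of the microglia list and of 15 further lists, over all 8 arrays. Black bars are list medians, n is the number of tested genes, and filled symbols with names have an adjusted p below 0.1; there is none in the microglia list, whose 10 genes lie between -0.16 and 0.28.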

How the data were processed

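RNA of the L6S1 cord of 4 stressed and 4 control rats was hybridised to Agilent SurePrint rat arrays. The authors deposited the intensity of each spot as given by Feature Extraction 10.7.3.1, background-subtracted and detrended within each array, and a table of the same signal. Neither was found to be normalized between arrays. Of 58717 non-control spots, those marked as outliers were set to missing. The log2 processed signal minus the 75th percentile of each array was averaged over the spots of a probe. Of 30367 probes, 23677 were tested, being well above background (at least 0.5 of the spots) on at least 4 of the 8 arrays. Groups came from the labels and were compared with limma 3.58.1 in R 4.3.3, with data.table version 1.17.8, without covariates. P values are two-sided and adjusted over all tested probes. Single probes were also compared with an exact permutation test over 70 choices of arrays. The fit was tested on simulated data.

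The 10 members and the 15 further gene lists were chosen with earlier results of these data known. Apoe, Cd63, Ctsb, Ctsd, Itgb2 and Laptm5 stand in 2 of the further lists each. The brightest probe, with the highest mean over all arrays, stands for a gene. Named are all members with all probes, all tested ligands and partners, and in the other lists the called genes or, where none was called, the 2 genes with the smallest p, of which 1 is not reported here. Older array symbols were matched for Spi1, Ctsl, Epb42 and Rbfox3, and list genes with no matched probe or too dim a probe were not tested. Correlations of same-numbered rats' deviations from their group means were 0.0951, 0.12, -0.0869 and 0.305, so that the numbers were not taken as pairs. Positions are those of the files on rn4. Exons and UTRs of the probes were not analysed here, as no rn4 annotation was used. Arrays give no counts, and the number of arrays limits the precision. Alternatives were another background correction, another normalization, the authors' table, other filters, array weights, a replicate block, the 5′ minus 3′ covariate, each rat left out, and the mean of a gene's probes.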

Additional observations from a re-analysis of the deposited data

Results flagged for a closer look

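In 10 of 52 groups of 4 rats, over the 15 member probes and the 11 ligands and partners, the highest or lowest rat stood apart: its gap to the nearest rat, as a share of the range of the group, was above the 95% critical value of Dixon. Chance gives about 1 in 20, or 2.6 of 52, and the probes share their rats. Control 2 was the high rat at Aif1 base 593 (gap 0.84 of the range), Csf1r base 2663 (0.858) and Ptprc base 1746 (0.87), and the low rat at Cd200 (0.869). Stressed 3 was the high rat at Aif1 base 475 (0.85), Tmem119 base 1712 (0.951) and Itgb2 (0.861). Control 4 was the high rat at Cx3cr1 (0.883) and the low rat at Icam1 (0.863), and stressed 4 was the high rat at Csf1r base 1349 (0.905).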

How the results depend on the processing

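The 4 rats of a group limit what can be seen, and control replicate 2 decides the calls. The number of the 10 members called was 0 under all alternatives but 2. With array weights, which gave control 2 a weight of 0.107, it was 1 at both thresholds, and leaving out 1 rat at a time gave 0 to 1, with 1 only without control 2. In both fits the called member was Csf1r, and 50.6% and 42.4% of all tested probes were called. With the 5′ minus 3′ covariate 0 members were called, but 4 had an unadjusted p below 0.05 and 10.1% of all tested probes were called, and the median difference of the members moved from 0.040 to -0.21, with that of all tested probes at -0.043. Leaving out 1 rat gave medians from -0.024 to 0.13. Among the 249 recomputed differences of member probes, 212 kept their direction and their side of the threshold, 6 were newly called in the same direction and 31 changed direction. The differences of P2ry12, Trem2 and Cd68 changed direction under none of the 17 alternatives. The covariate separated the stressed rats from every control but control 2, so that its fit tells it from stress mainly through that rat. The cause of the changes was not tested.

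With the covariate the differences that changed direction were -0.31 at Aif1 base 593, -0.067 at Itgam base 3396, -0.35 at Csf1r base 2663, -0.40 at Tmem119 base 1067, -0.48 at Ptprc base 1746, -0.031 at Ptprc base 4631 and -0.19 at Tyrobp. With normexp background correction they were -0.0014 at Aif1 base 593 and -0.00052 at Cx3cr1. With quantile normalization it was -0.031 at Ptprc base 4631, with array weights 0.16 at Csf1r base 1349 and -0.076 at Cx3cr1, and with the mean of all probes of a gene -0.10 at Itgam and 0.055 at Tmem119. Leaving out 1 rat gave -0.0023 to 0.078 at Aif1 base 475, -0.075 to 0.17 at Aif1 base 593, -0.55 to 0.031 at Itgam base 3378, -0.10 to 0.13 at Cx3cr1, -0.17 to 0.24 at Csf1r base 1349, -0.33 to 0.070 at Tmem119 base 1712, -0.035 to 0.17 at Tyrobp and -0.012 to 0.19 at Ptprc base 4631.

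Replicate numbers were shared by the groups, but not every same-numbered pair of rats deviated together. With the replicate block 0 members and 0 of all tested probes were called, the adjusted p of P2ry12 was 0.322, and the calls of Tgfb1 (0.215), Cd9 (0.207), Mog (0.211), Pecam1 (0.215) and Cdh19 (0.207) were lost. The alternatives for the called genes of the other lists were chosen after seeing the data: of 16 settings each, 5 kept the call of Tgfb1, 8 that of Cd9 and 6 those of Mog and Pecam1, and of 15 settings 6 kept that of Cdh19. None of these 5 changed direction.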
